A study of Mus musculus with 29 samples.

Results

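The comparison set control MPP3 against control ST-HSC, 2 populations of blood progenitors sorted from mouse bone marrow. Its members were the 6 RNA-seq libraries, of 29 in the series, whose column names place them in these populations and in the control genotype: 3 of MPP3 and 3 of ST-HSC. The mice were C57BL/6, described as young, and all groups, controls included, had been given pIpC 6 weeks earlier. This synthetic double-stranded RNA induces interferon and is commonly used to switch on a Cre recombinase under an interferon-responsive promoter. The sources used here give neither the Cre line, nor the Dnmt3a allele of the mutant mice, nor the antibody gates of the sort, nor how many animals stand behind a library. The same step was read again in 4 mutant MPP3 and 4 mutant ST-HSC libraries, which share no library with the control comparison. The labels do not say that replicates of a group came from separate animals, so the p-values below measure the spread between libraries.

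ST-HSC, short-term haematopoietic stem cells, repopulate the blood of an irradiated host only for a while. They lie between the long-term stem cells (LT-HSC) and the multipotent progenitors. MPP3 is the multipotent progenitor population biased towards granulocytes and macrophages, while MPP4 is biased towards lymphoid cells. Myeloid commitment is known for the early transcription of primary granule proteins, the antimicrobial enzymes that neutrophil precursors pack into their first granules, and for the loss of transcription factors that hold stem cells in a self-renewing state.

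The 6 libraries held between 6133994 and 10368920 assigned reads, and 15920 to 17560 genes had at least 1 read. At these depths 3 reads corresponded to 0.289 to 0.489 CPM, the read count scaled to the effective size of its library, so lower levels carry little weight. Mitochondrial ribosomal RNA took 24.65%, 13.41% and 27.09% of reads in MPP3 replicates 1, 2 and 3, and 25.33%, 29.6% and 22.93% in ST-HSC replicates 1, 2 and 3. ST-HSC replicate 1 stood apart from the other 2 ST-HSC libraries. On the first principal component of the control libraries it lay at -24.2, on the side of the MPP3 libraries (-42.1, -18.1 and -28.5), while ST-HSC replicates 2 and 3 lay at 27.4 and 36.9. It also held more immunoglobulin RNA than its replicates, with values given with the B-cell genes below. Pairs of replicates gave chi-square values of 27.79 to 70.93 per degree of freedom over genes, far above the value near 1 that counting error alone gives, so each library was counted as its own sample.

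Of the markers behind the usual gates, Kit, the stem cell factor receptor, was present in all 6 libraries, at 372, 435 and 386 CPM in MPP3 and at 624, 681 and 671 CPM in ST-HSC. Cd48, the surface protein used to separate MPP3 from ST-HSC, stood at 42.8, 62.7 and 78.3 CPM in MPP3 and at 18, 9.25 and 10.9 CPM in ST-HSC. The Cd48 libraries did not overlap, but the difference missed the threshold (log2 difference 2.27 ± 0.60 SE, adjusted p = 0.0632). Slamf1, which encodes the LT-HSC marker CD150, was near the limit of detection in both, at 2.51, 0 and 1.61 CPM in MPP3 and 0.785, 2.2 and 1.63 CPM in ST-HSC. Flt3, the MPP4 marker, was at 117, 99.6 and 80.4 CPM in MPP3 and 133, 130 and 213 CPM in ST-HSC. None of the 13 gate and sorting receptors tested passed the threshold by edgeR, 3 higher and 4 lower ones had an unadjusted p under 0.05, and DESeq2 called 1 higher and 2 lower.

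In all, 262 of the 14937 genes tested differed at an adjusted p under 0.05 by edgeR's quasi-likelihood test, with Benjamini-Hochberg adjustment over all genes tested. They made up 1.75% of the genes tested. In MPP3, 147 genes were higher (0.984% of genes tested) and 115 were lower (0.770%). The median size among the called genes was a log2 difference of 1.57 upwards and 1.68 downwards, and 137 higher (0.917% of genes tested) and 108 lower genes (0.723%) changed at least 2-fold. The 3 MPP3 libraries lay outside the range of the 3 ST-HSC libraries for all 262, whereas 9.99% of all genes tested lay above and 9.44% below without overlap. At an unadjusted p under 0.05 there were 2357 of 14937 genes, and DESeq2 called 373 higher and 373 lower of 14606. List counts at an unadjusted p or by DESeq2, above and below, are to be read beside these. The median log2 difference over all genes tested was -0.043. Column names begin with 1 of 2 numbers whose meaning the labels do not give, and each number covers libraries of both populations. Within the numbers Mpo differed by 5.27 and 5.67 on the log2 scale, against 5.57 over all libraries, and Top2a by 0.85 and 2.85, against 1.48. Called genes keep their sign within each number because their libraries do not overlap, and of all genes tested 8459 had the same sign in both. At the edge of the threshold, Alg8 and Hoxa9 lay just inside (adjusted p = 0.0495 each) and Cldn15 and Spry1 just outside (0.0503 and 0.0506).

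The number of calls depended on single libraries. Without MPP3 replicate 1, 2 or 3 there were 97, 43 and 26 higher and 40, 34 and 17 lower genes. Without ST-HSC replicate 1, 2 or 3 there were 171, 28 and 33 higher and 90, 35 and 27 lower genes. Of the 147 higher and 115 lower genes called with all libraries, 25 and 17 kept their call without MPP3 replicate 3. A set of 94 called genes, chosen partly by smallest p and so not standing for all 262, was followed through these omissions. Of this set, 25 stayed past the threshold in every one, and 16 in none. The 25 were Nkg7, Prtn3, Alas1, Aurkb, Prr11, Agps, Calr, Iqgap3, Kif15, Ckap2l, Espl1, Kif11 and ENSMUSG00000094062 on the higher side, and Itsn1, Lhcgr, Dst, Mecom, Trpc6, Mmrn1, Gabbr1, Samd9l, Zfhx3, Iigp1, Stxbp4 and Phf13 on the lower side. Every other called gene named below lost its call in at least 1 omission, while the sign of its difference was the same in all 6.

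**Figure D1:**
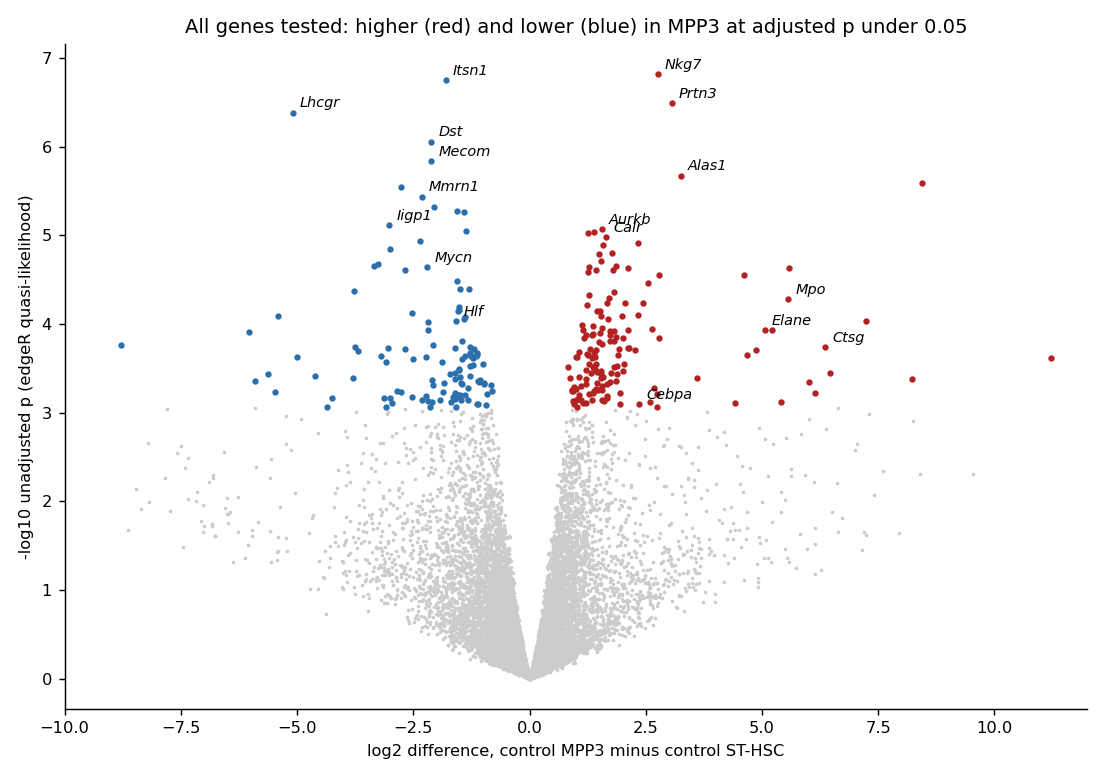
Each point is 1 of the 14937 genes tested. The x axis is the log2 difference, control MPP3 minus control ST-HSC, and the y axis is -log10 of the unadjusted p of edgeR's quasi-likelihood test. The 147 higher genes are red and the 115 lower genes blue. Prtn3 and Nkg7 stand highest on the right and Itsn1 and Lhcgr on the left, and the granule genes Mpo, Elane and Ctsg lie farther right with larger p-values.

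Primary granule and early myeloid genes were mostly higher in MPP3, with 7 of those tested past the threshold. Prtn3, which encodes proteinase 3, stood at 165, 281 and 236 CPM in MPP3 against 25.6, 21.2 and 35.5 CPM in ST-HSC, a log2 difference of 3.05 ± 0.38 (adjusted p = 0.00155). Nkg7, a granule membrane protein of cytotoxic and early myeloid cells, stood at 114, 169 and 148 CPM in MPP3 against 34.1, 13.1 and 16.6 CPM in ST-HSC (2.75 ± 0.33, adjusted p = 0.00134). Both genes were well above the ST-HSC range in every MPP3 library, and both calls survived each omission.

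Mpo, the gene of myeloperoxidase, reached 5650, 8090 and 7220 CPM in MPP3 and 211, 81.1 and 151 CPM in ST-HSC. This is a 47.3-fold difference in fitted level (log2 5.57 ± 1.04, adjusted p = 0.0164), and its adjusted p lay between 0.0297 and 0.0708 when 1 library was left out, missing the threshold without ST-HSC replicate 2 or 3. Elane, which encodes neutrophil elastase, stood at 560, 845 and 932 CPM in MPP3 and 32, 14 and 24.1 CPM in ST-HSC (5.06 ± 1.02, adjusted p = 0.0227). Ctsg, the gene of cathepsin G, stood at 176, 212 and 230 CPM in MPP3, with 6.28, 0.81 and 0 CPM in ST-HSC (6.36 ± 1.34, adjusted p = 0.0266). Elane and Ctsg missed the threshold without MPP3 replicate 2 or 3 or ST-HSC replicate 2 or 3, with adjusted p up to 0.0898 and 0.0921. For none of the 3 genes did the populations approach each other: the lowest MPP3 library was many times the highest ST-HSC library.

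Ms4a3, a tetraspan protein of granulocyte and monocyte precursors, was at 46.8, 48.3 and 66.6 CPM in MPP3 and 1.8, 0 and 3.91 CPM in ST-HSC (4.86 ± 1.03, adjusted p = 0.0266), and its adjusted p lay between 0.0501 and 0.108 with 1 library left out. Of the 16 primary granule and early myeloid genes tested, 15 had positive log2 differences and 7 passed the threshold, all higher: Nkg7, Prtn3, Calr, Mpo, Elane, Ctsg and Ms4a3. That is 43.8% of the list, beside 0.984% of all genes tested, and the list's median log2 difference was 3.15. The gene lists were chosen with earlier results of these data known. Shares and signs of list members, here and below, are therefore descriptions and not tests. Calr is also counted in the list of folding genes below. Without MPP3 replicate 1, 2 or 3 the number past the threshold was 7, 4 and 4, and without ST-HSC replicate 1, 2 or 3 it was 8, 3 and 3. With all 6 libraries it was 10 in a fit on these libraries alone, 11 by DESeq2 and 12 without the filter on low counts. The exception in sign was Lyz2, the lysozyme gene of mature myeloid cells, with 207, 105 and 141 CPM in MPP3 and 351, 89.4 and 83.6 CPM in ST-HSC, where ST-HSC replicate 1 was the highest of the 6 libraries. With 1 library left out its log2 difference lay between -0.543 and 0.819.

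Other members of the list missed the threshold although their libraries did not overlap. Clec12a, a myeloid inhibitory lectin, stood at 92, 155 and 143 CPM in MPP3 and 26.8, 15.6 and 6.19 CPM in ST-HSC (adjusted p = 0.0649). Plac8 stood at 92.4, 182 and 181 CPM in MPP3 and 28.4, 22.2 and 57 CPM in ST-HSC (adjusted p = 0.0568). Cst7, a cysteine protease inhibitor, stood at 22.4, 26 and 32.1 CPM in MPP3 and 5.95, 0.116 and 0.326 CPM in ST-HSC (adjusted p = 0.108). For Cst7 most of the ST-HSC reads came from replicate 1.

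Prtn3 and Elane are neighbours on the plus strand of mouse chromosome 10, with Prtn3 at chr10:79874476-79883174 and Elane at chr10:79886247-79888215 in GRCm38 by the GENCODE annotation and 3072 bases between them. The promoter windows of both, read from RefSeq on GRCm38.p6, are shown because these adjacent genes were both called, and part of the Mpo promoter because it holds the same letters in a pair of places. The stretches are chr10:79879547-79879666 and chr10:79886192-79886311, both plus strand and both ending just before the start that RefSeq annotates, which lies inside the GENCODE interval, and chr11:87793534-87793653 on the plus strand for Mpo, farther upstream. Capitals mark the letters GAGGAA, the core that the ETS factor PU.1 (Spi1) is known to recognise.
Prtn3: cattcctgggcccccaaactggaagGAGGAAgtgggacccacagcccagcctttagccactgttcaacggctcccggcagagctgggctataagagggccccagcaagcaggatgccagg
Elane: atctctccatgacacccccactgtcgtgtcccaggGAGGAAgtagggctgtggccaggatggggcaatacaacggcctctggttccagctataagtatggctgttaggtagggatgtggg
Mpo: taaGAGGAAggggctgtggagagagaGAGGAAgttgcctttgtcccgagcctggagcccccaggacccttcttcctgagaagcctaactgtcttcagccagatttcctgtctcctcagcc
GAGGAA or its complement was searched on both strands from 250 bases before to 50 bases after the start. It occurred in 5 of the 7 called members of the primary granule and early myeloid list (71.4%). Of the 14 list members with a window, 8 held it (57.1%). Among all called genes with a window it occurred in 29 of 102 higher (28.4%) and 25 of 87 lower ones (28.7%). The letters were in 30.8% of the tested genes with a window and in 31.3% of all genes with a window. A match of these letters is a description of the sequence and not a measured site.

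An antisense transcript lies within Mpo. Gm11505, annotated on the opposite strand over 5361 bases inside Mpo, stood at 1460, 2360 and 1990 CPM in MPP3 and 54.9, 20.9 and 45.4 CPM in ST-HSC (5.58, adjusted p = 0.0104). Its level moved with that of Mpo in every library, and since no source used here states whether the counting used strand, reads from both genes cannot be told apart. F630028O10Rik, a non-coding transcript on the X chromosome, was at 50.1, 31.3 and 28.2 CPM in MPP3 and 9.43, 5.78 and 7.49 CPM in ST-HSC (2.27, adjusted p = 0.0266). The hairpin of miR-223, a microRNA of the granulocyte lineage, lies inside this transcript on the same strand. Mature microRNAs were not measured in these polyA libraries. Both transcripts were named after their values were seen.

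Among the transcription factors of the myeloid lineage, 2 of 15 tested were called, both higher (13.3%, beside 0.984% of all genes tested). The count was 2 without ST-HSC replicate 1, 1 without MPP3 replicate 2 and 0 without any of the other 4 libraries. Cebpa, the factor required for the step from multipotent to granulocyte-macrophage progenitors, stood at 19.1, 27.3 and 17.3 CPM in MPP3 against 1.68, 6.48 and 4.24 CPM in ST-HSC. The difference was 2.36 ± 0.58 on the log2 scale (adjusted p = 0.0472). It was lost whichever library was left out, with adjusted p between 0.0662 and 0.146, although the log2 difference stayed between 1.99 and 2.87. Zeb2, a zinc finger repressor, stood at 427, 237 and 415 CPM in MPP3 and 227, 149 and 142 CPM in ST-HSC (1.06 ± 0.24, adjusted p = 0.0358). Its call was lost without MPP3 replicate 1 or 3 or ST-HSC replicate 2 or 3 (adjusted p up to 0.157). Spi1, which encodes PU.1, overlapped between the populations, at 42.9, 52.1 and 61.7 CPM in MPP3 and 58.6, 44.7 and 39.7 CPM in ST-HSC (log2 difference 0.13). Gfi1, a repressor that favours granulocytes, had 40, 24.7 and 32.6 CPM in MPP3 and 12.7, 7.63 and 19.2 CPM in ST-HSC, and its adjusted p was 0.346.

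No myeloid cytokine receptor of the 14 tested passed the threshold by edgeR or DESeq2, and 3 were higher and 1 lower at an unadjusted p under 0.05. Csf1r, the macrophage colony-stimulating factor receptor, had the largest difference, with 38.1, 37.2 and 37.6 CPM in MPP3 and 13.5, 2.78 and 2.12 CPM in ST-HSC (2.60 ± 0.79, adjusted p = 0.104). Its MPP3 libraries were nearly equal and its ST-HSC libraries were not, with replicate 1 the highest. The spread behind each standard error was estimated over all 14 control libraries, and Csf1r averaged 37.1 ± 31.5 CPM (SD) in LT-HSC. In a fit on the compared libraries alone, 0 of the 14 receptors were called. Csf3r, the granulocyte colony-stimulating factor receptor, was measured at a log2 difference of 0.03 with overlapping libraries. Ly6c2, a surface marker of monocytes and their precursors, stood at 206, 196 and 196 CPM in MPP3 and 26.5, 4.74 and 4.72 CPM in ST-HSC, and missed the threshold (adjusted p = 0.0741).

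Several further myeloid genes that belong to no list were named after their values were seen. Ccl9, a chemokine of myeloid cells, stood at 70.8, 81 and 142 CPM in MPP3 and 8.42, 12.6 and 21.8 CPM in ST-HSC (2.79 ± 0.49, adjusted p = 0.0109). Lta4h, the enzyme that makes leukotriene B4, stood at 73.8, 103 and 102 CPM in MPP3 and 31.9, 24.4 and 27.7 CPM in ST-HSC (1.73 ± 0.35, adjusted p = 0.0227). Rab44, a large GTPase of granulocytes and mast cells, stood at 157, 74.6 and 152 CPM in MPP3 and 6.17, 2.08 and 1.79 CPM in ST-HSC (5.22 ± 1.05, adjusted p = 0.0227). All 3 were higher in each MPP3 library than in any ST-HSC library. Each missed the threshold without MPP3 replicate 3 and without ST-HSC replicate 2, Lta4h and Rab44 also without ST-HSC replicate 3, and Lta4h also without MPP3 replicate 2, with adjusted p of at most 0.0921.

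**Figure D2:**
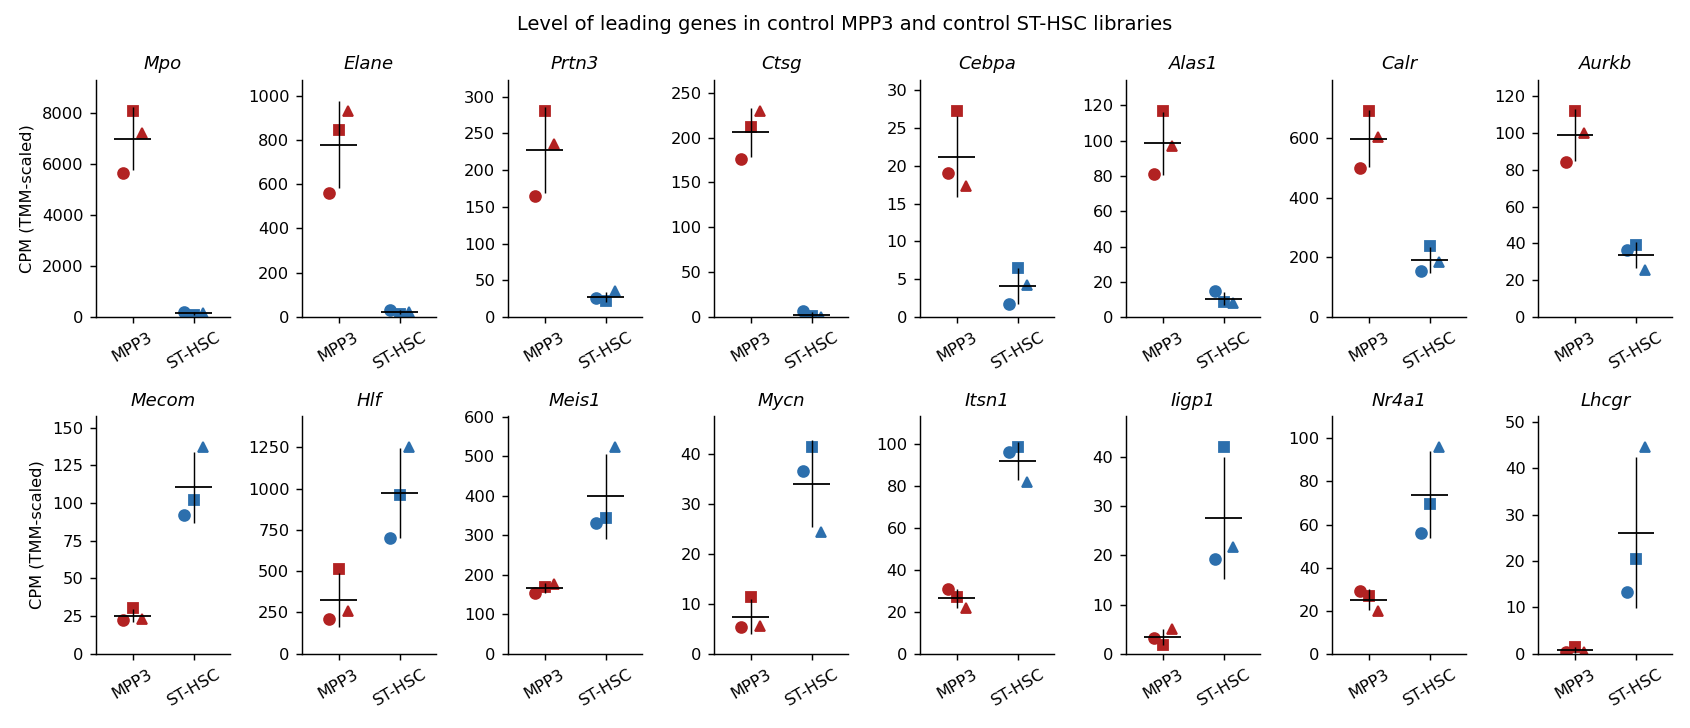
CPM of 16 genes in each control library, with MPP3 left (red) and ST-HSC right (blue); circles, squares and triangles are replicates 1, 2 and 3, the bar is the mean and the vertical line the SD (n = 3 each), and each y axis starts at 0. The granule genes, Cebpa, Alas1, Calr and Aurkb are higher in all 3 MPP3 libraries, while Mecom, Hlf, Meis1, Mycn, Itsn1, Iigp1, Nr4a1 and Lhcgr are higher in all 3 ST-HSC libraries.

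Of the genes of the late neutrophil, which make up the secondary granules and the mature cell surface, none of the 15 tested passed the threshold by edgeR or DESeq2, 0 had an unadjusted p under 0.05, 8 had positive and 7 negative differences, and the median was 0.06. S100a8, a calcium-binding protein abundant in neutrophils, stood at 60.8, 62.4 and 40.5 CPM in MPP3 and 39.2, 8.91 and 79.5 CPM in ST-HSC, so that ST-HSC held both the lowest and the highest library. Ly6g, the defining neutrophil surface marker, was at 0.139, 0 and 0 CPM in MPP3 and at 0 CPM in all 3 ST-HSC libraries. The summed CPM of the list was 345.2, 275.3 and 241 in MPP3 and 371.5, 125.7 and 388.5 in ST-HSC. Of 15 monocyte and macrophage genes tested, 14 had positive differences with a median of 0.54. None was called by edgeR or DESeq2, with 2 higher at an unadjusted p under 0.05, and the median was 1.57 without ST-HSC replicate 1, 0.31 without ST-HSC replicate 2, 0.33 without ST-HSC replicate 3 and 0.36 without MPP3 replicate 1. In bulk libraries, a larger share of cells of a type and more RNA per cell cannot be told apart.

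All 24 G2 and mitosis genes tested had positive log2 differences, 21 without overlap between the populations, and 12 were called higher. Over all genes tested, 47.3% were positive and 9.99% lay above without overlap. The 12 called genes are 50% of the list, beside 0.984% of all genes tested, with a list median of 1.41. The number past the threshold was 9, 3 and 2 without MPP3 replicate 1, 2 or 3, and 12, 3 and 3 without ST-HSC replicate 1, 2 or 3, and 19 by DESeq2. The list's summed level was 3734, 4287 and 4504 CPM in MPP3 and 2086, 1785 and 1092 CPM in ST-HSC. Among the other control populations the same sum was 2764 to 5994 CPM in LT-HSC and 2818 to 4215 CPM in MPP4, so the ST-HSC libraries were the lowest of the 4 control populations.

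Aurkb, the kinase of the chromosomal passenger complex, stood at 84.1, 112 and 100 CPM in MPP3 against 36.2, 39.1 and 25.7 CPM in ST-HSC (1.55 ± 0.25, adjusted p = 0.00789). Kif11, the kinesin that pushes spindle poles apart, stood at 283, 343 and 348 CPM in MPP3 against 133, 137 and 67.8 CPM in ST-HSC (1.53 ± 0.26, adjusted p = 0.0104). Both stayed past the threshold whichever library was left out. Ube2c, the ubiquitin-conjugating enzyme that serves the anaphase-promoting complex, stood at 130, 191 and 167 CPM in MPP3 against 62.7, 38.5 and 15 CPM in ST-HSC (2.06 ± 0.39, adjusted p = 0.017). Top2a, which untangles sister chromatids, stood at 475, 650 and 584 CPM in MPP3 against 301, 226 and 85.8 CPM in ST-HSC (1.48 ± 0.35, adjusted p = 0.0415). In both genes ST-HSC replicate 3 was the lowest library, and without it the log2 differences were smaller, at 1.68 for Ube2c and 1.11 for Top2a. The Ube2c call was lost without MPP3 replicate 2 or 3 or ST-HSC replicate 2 (adjusted p up to 0.0627), and the Top2a call was kept only without ST-HSC replicate 1 (adjusted p otherwise up to 0.135).

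The other called members of the list were Racgap1, Tpx2, Bub1b, Plk1, Ccnb1, Cenpe, Cdca8 and Nusap1, with log2 differences of at most 2.00. Mki67, the gene of the proliferation antigen Ki-67, was at 1350, 1240 and 1650 CPM in MPP3 and 735, 670 and 425 CPM in ST-HSC, without overlap and short of the threshold (1.21 ± 0.33, adjusted p = 0.0746). Foxm1, the transcription factor that drives the mitotic programme, is outside the list and was named after its values were seen. It stood at 100, 136 and 136 CPM in MPP3 against 68.4, 35.2 and 40.1 CPM in ST-HSC (1.37, adjusted p = 0.0316). Several of the 12 higher genes with the smallest p-values belonged to the same machinery. Espl1, the separase that cuts cohesin, stood at 55.9, 63.2 and 59.6 CPM in MPP3 against 18.2, 27.3 and 17.8 CPM in ST-HSC (1.50, adjusted p = 0.00959). Kif15, a spindle kinesin, stood at 155, 148 and 149 CPM in MPP3 against 58.6, 60 and 32.1 CPM in ST-HSC (1.58, adjusted p = 0.00866). Prr11, Ckap2l and Iqgap3, all of which peak in dividing cells, were called higher as well, by 1.39, 1.76 and 2.33 on the log2 scale.

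The promoters of Top2a, Ube2c and Kif11 are printed because mitotic genes share a known element, the cell cycle genes homology region, through which they are repressed in resting cells. Capitals mark its letters, TTTGAA or TTCGAA on either strand, so TTCAAA is the reverse complement of TTTGAA. The stretches are chr11:99024190-99024309 (minus strand, Top2a), chr2:164769809-164769928 (plus strand, Ube2c) and chr19:37376262-37376381 (plus strand, Kif11) of GRCm38.p6 from RefSeq, each ending just before the start that RefSeq annotates.
Top2a: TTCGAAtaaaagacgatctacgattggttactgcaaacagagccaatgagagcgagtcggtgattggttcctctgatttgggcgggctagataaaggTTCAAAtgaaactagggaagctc
Ube2c: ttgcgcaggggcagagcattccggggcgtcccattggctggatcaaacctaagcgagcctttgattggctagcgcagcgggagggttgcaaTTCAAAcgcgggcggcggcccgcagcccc
Kif11: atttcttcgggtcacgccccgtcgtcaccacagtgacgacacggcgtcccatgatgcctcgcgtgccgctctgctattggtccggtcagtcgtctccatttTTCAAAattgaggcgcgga
The letters occurred in the windows of 16 of 20 G2 and mitosis genes (80%) and of 7 of 10 called members (70%). They occurred in 42 of the 102 called higher genes with a window (41.2%), in 13 of 87 called lower genes (14.9%) and in 16.9% of the tested genes with a window. Over all genes with a window the share was 21.7%. TTCGAA reads the same on both strands and was counted once. All 16 of these mitotic genes also held CCAAT, the other element known from such promoters, which beside the first occurred in 7.11% of the tested genes with a window. No binding was measured.

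S-phase genes differed less. Of 28 DNA replication genes tested, 27 had positive differences with a median of 0.76, and 14 lay above without overlap. Over all genes tested, 47.3% were positive and 9.99% lay above without overlap. None of the 28 passed the threshold by edgeR. At an unadjusted p under 0.05 there were 18 higher, beside 2357 of 14937 genes in either direction. DESeq2 called 7 higher, beside 373 of 14606 genes. Mcm3, a subunit of the replicative helicase, stood at 125, 185 and 114 CPM in MPP3 and 68.7, 68.1 and 62.1 CPM in ST-HSC (1.09 ± 0.29, adjusted p = 0.0632). Rrm2, which makes deoxynucleotides, stood at 115, 130 and 79.5 CPM in MPP3 and 51.5, 26.5 and 16.8 CPM in ST-HSC (1.77 ± 0.51, adjusted p = 0.0867). Among gene families chosen after the values were seen, 11 of 56 histone genes were called higher and none lower, with a median of 1.33, beside 0.984% and 0.770% of all genes tested. Hist1h3b, a replication-dependent histone, stood at 41.1, 98.5 and 58.8 CPM in MPP3 and 19.2, 7.87 and 19.1 CPM in ST-HSC (2.11 ± 0.45, adjusted p = 0.0266). Of 11 tubulin genes all had positive differences and 3 were called, and of 29 kinesin genes 6 were called higher and 1, Kif21a, lower. Cdk6, the kinase that moves stem cells out of quiescence, stood at 571, 823 and 775 CPM in MPP3 and 409, 438 and 307 CPM in ST-HSC, just short of the threshold (0.91 ± 0.23, adjusted p = 0.0513).

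Protein folding genes of the endoplasmic reticulum were also higher in MPP3, for 6 of those tested. Calr, the gene of the calcium-binding chaperone calreticulin, stood at 499, 692 and 605 CPM in MPP3 against 154, 239 and 183 CPM in ST-HSC (1.64 ± 0.27, adjusted p = 0.00832), a call that survived every omission. Xbp1, the transcription factor of the unfolded protein response, stood at 225, 152 and 209 CPM in MPP3 against 98.9, 67.3 and 74.1 CPM in ST-HSC (1.29 ± 0.31, adjusted p = 0.043). Sdf2l1, a cofactor of the chaperone BiP, stood at 38.9, 57.2 and 68.6 CPM in MPP3 against 8.53, 19.9 and 15.6 CPM in ST-HSC (1.90 ± 0.41, adjusted p = 0.0275). In all 3 genes every MPP3 library lay above every ST-HSC library. The Xbp1 call was kept only without ST-HSC replicate 1 and the Sdf2l1 call only without MPP3 replicate 1, with adjusted p otherwise up to 0.154 and 0.13. P4hb, a disulfide isomerase, Sel1l, a part of the degradation machinery, and Hyou1, a large chaperone, were also called, by 0.91, 0.96 and 1.56 on the log2 scale.

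Of the 23 folding genes tested, 19 had positive differences, 6 were called higher (26.1%, beside 0.984% of all genes tested) and the median was 0.89. The count was 2, 2 and 1 without MPP3 replicate 1, 2 or 3, and 2, 1 and 1 without ST-HSC replicate 1, 2 or 3, with 11 by DESeq2. Hspa5, which encodes BiP, was at 337, 253 and 368 CPM in MPP3 and 231, 237 and 134 CPM in ST-HSC (0.67 ± 0.33, adjusted p = 0.336). The stress factors Atf4 and Ddit3 had overlapping libraries and differences of -0.06 and -0.21. Xbp1 is also a gene of antibody-secreting cells, whose markers are given below.

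The Calr promoter is shown because Calr had the smallest p of the called folding genes and its window carries the known stress element of this pathway, CCAAT and CCACG with 9 bases of any kind between them, here as its reverse complement in capitals, at chr8:84847055-84847174 on the minus strand of GRCm38.p6 (RefSeq), upstream of the start.
Calr: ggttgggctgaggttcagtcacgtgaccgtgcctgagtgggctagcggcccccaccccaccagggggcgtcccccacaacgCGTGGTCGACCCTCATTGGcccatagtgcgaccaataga
This element includes CCAAT and was searched on both strands. It occurred in 7 of 21 folding genes with a window (33.3%), 1 of 5 called ones (20%) and 0.137% of all genes with a window. The absence of the letters from a window says nothing of the factor.

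Metabolic genes were mostly positive, with few calls. Alas1, the first enzyme of haem synthesis outside the red cell lineage, stood out at 81, 117 and 97.2 CPM in MPP3 against 14.5, 8.56 and 7.82 CPM in ST-HSC, a 9.51-fold difference (3.25 ± 0.47, adjusted p = 0.00456). Of the erythroid genes, none of the 24 tested was called by edgeR or DESeq2, 1 was higher and 1 lower at an unadjusted p under 0.05, 17 were positive and the median was 0.24, or 0.67 without ST-HSC replicate 1. Agps, an enzyme of peroxisomal ether lipid synthesis, stood at 208, 173 and 220 CPM in MPP3 against 84.4, 86.4 and 81.3 CPM in ST-HSC (1.25, adjusted p = 0.00789). Of 25 oxidative phosphorylation genes 24 were positive (median 0.50) and 1, Cox5a, was called. Of 18 glycolysis genes 15 were positive (median 0.57) and Pgk1 and Pgam1 were called, at 1.15 and 1.66. Of 24 ribosome biogenesis and Myc genes 22 were positive with a median of 0.33. In that list Srm, spermidine synthase, was called higher and Mycn lower. Over all genes tested, 47.3% were positive, 0.984% were called higher and 0.770% were called lower.

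**Figure D3:**
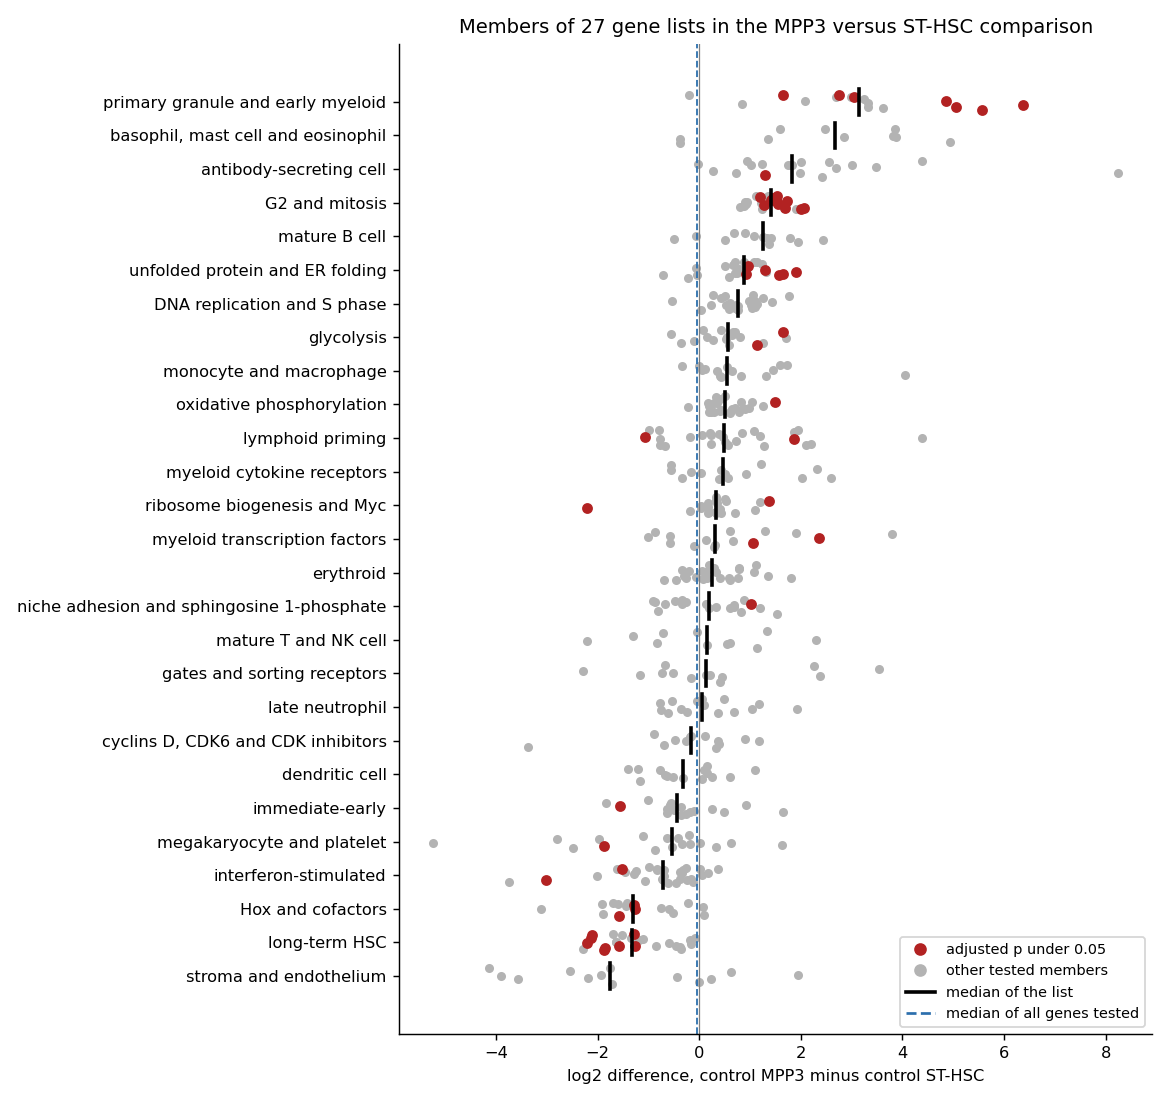
The x axis is the log2 difference, control MPP3 minus control ST-HSC, for each tested member of 27 gene lists, ordered by list median. Red points passed an adjusted p of 0.05, grey points did not, black bars are list medians and the dashed line is the median of all genes tested. The primary granule and early myeloid list has the highest median (3.15), and every point of the long-term HSC list lies below 0.

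Transcription factors of the stem cell were lower in MPP3. Mecom, which encodes the stem-cell factor EVI1, stood at 22.7, 30.2 and 23.1 CPM in MPP3 against 92.2, 102 and 137 CPM in ST-HSC (-2.12 ± 0.30, adjusted p = 0.00365). An antisense gene, Mecomos, overlaps it, and its reads cannot be separated without strand. Mycn, a Myc family factor of stem cells, stood at 5.3, 11.4 and 5.47 CPM in MPP3 against 36.5, 41.3 and 24.4 CPM in ST-HSC (-2.21 ± 0.39, adjusted p = 0.0104). Hlf, a leucine zipper factor that protects stem cell quiescence, stood at 209, 511 and 256 CPM in MPP3 against 704, 960 and 1250 CPM in ST-HSC (-1.58 ± 0.31, adjusted p = 0.0207). In these 3 genes no MPP3 library reached the lowest ST-HSC library. MPP3 replicate 2 was the highest MPP3 library in each.

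Meis1, a homeobox cofactor of self-renewal, stood at 153, 170 and 178 CPM in MPP3 and 331, 343 and 523 CPM in ST-HSC (-1.26 ± 0.27, adjusted p = 0.0275), without overlap. Prdm16, a chromatin regulator, and Fgd5, a reporter gene for stem cells, were also called, at -1.85 and -2.11. All 24 long-term HSC genes tested had negative differences, with a median of -1.31, and 8 were called lower (33.3%, beside 0.770% of all genes tested). The count was 2, 6 and 1 without MPP3 replicate 1, 2 or 3, and 5, 2 and 2 without ST-HSC replicate 1, 2 or 3. Mecom was past the threshold in all 6 omissions. Mycn missed it without MPP3 replicate 3 (adjusted p = 0.0694), and Hlf missed it without MPP3 replicate 1 or 3 or ST-HSC replicate 2 or 3, with adjusted p up to 0.11. The summed level of the list was 942, 1639 and 1065 CPM in MPP3 and 2400, 2794 and 3376 CPM in ST-HSC.

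Other stem cell markers missed the threshold. Gata2 was at 66.5, 111 and 71.4 CPM in MPP3 and 117, 96 and 108 CPM in ST-HSC, and Vwf, a marker of platelet-biased stem cells, differed by -0.18 with overlapping libraries. Procr, the endothelial protein C receptor of LT-HSC, was at 4.32, 12.4 and 0.107 CPM in MPP3 and 19.5, 20.1 and 42.2 CPM in ST-HSC, without overlap but with an adjusted p of 0.148. Of the Hox genes and cofactors, 15 of 17 were negative (median -1.31) and 3 were called lower (17.6%, beside 0.770% of all genes tested), Meis1 and Hoxa9 among them. The count was 1 without MPP3 replicate 2 or ST-HSC replicate 1, and 0 without any of the other 4 libraries. Hoxa9, a homeobox factor of stem cells and myeloid leukaemia, stood at 12.5, 16.3 and 20 CPM in MPP3 and 43.5, 37.9 and 65.3 CPM in ST-HSC (-1.58 ± 0.39, adjusted p = 0.0495). Its call and that of Prdm16 were lost in every omission, with adjusted p of up to 0.179 and 0.169.

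The leading lower genes also included signalling and scaffold genes. Itsn1, an endocytic scaffold, stood at 30.7, 26.8 and 21.6 CPM in MPP3 against 95.9, 98.2 and 81.6 CPM in ST-HSC (-1.80 ± 0.21, adjusted p = 0.00134). Lhcgr, the luteinising hormone receptor, stood at 0.418, 1.55 and 0.322 CPM in MPP3 against 13.4, 20.4 and 44.5 CPM in ST-HSC (-5.10 ± 0.65, adjusted p = 0.00155). Dst, a cytoskeletal linker, stood at 41, 41.6 and 46.1 CPM in MPP3 against 176, 188 and 196 CPM in ST-HSC (-2.12 ± 0.28, adjusted p = 0.00265). The libraries of each population lay close together for Itsn1 and Dst, while for Lhcgr the ST-HSC libraries ranged widely above a near absence in MPP3. Mmrn1, a multimerin of endothelium, platelets and stem cells, stood at 9.9, 10.4 and 9.66 CPM in MPP3 against 41, 71.5 and 36.8 CPM in ST-HSC (-2.32 ± 0.35, adjusted p = 0.00552). Gabbr1, a subunit of the GABA-B receptor, stood at 30.3, 26.3 and 18.2 CPM in MPP3 against 76.3, 86.3 and 148 CPM in ST-HSC (-2.05 ± 0.31, adjusted p = 0.00629).

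Trpc6, a calcium channel, Zfhx3, a homeobox zinc finger factor, Stxbp4 and Apol7e completed the 12 lower genes with the smallest p-values, at -2.77, -1.41, -1.37 and -2.36. Angpt1, the ligand of the Tie2 receptor, stood at 119, 170 and 107 CPM in MPP3 and 294, 285 and 274 CPM in ST-HSC (-1.11 ± 0.26, adjusted p = 0.0369). Epas1, the hypoxia factor HIF2-alpha, stood at 1.67, 0.703 and 0.107 CPM in MPP3 and 12, 3.59 and 44.8 CPM in ST-HSC (-4.61 ± 1.05, adjusted p = 0.0358). The non-coding X-linked transcript Firre stood at 3.63, 4.36 and 3.33 CPM in MPP3 and 20.2, 24.8 and 27.7 CPM in ST-HSC (-2.68, adjusted p = 0.0104). These 3 were named after their values were seen, and the Epas1 call was lost without any MPP3 library or without ST-HSC replicate 3 (adjusted p up to 0.195).

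The other control populations place these levels. Mean CPM of Mpo was 6990 ± 1240 in MPP3, 148 ± 65.1 in ST-HSC, 268 ± 329 in LT-HSC and 808 ± 203 in MPP4 (SD, n = 3, 3, 4 and 4). Elane averaged 779 ± 195 in MPP3, 23.4 ± 9.01 in ST-HSC, 50.1 ± 47 in LT-HSC and 3.56 ± 2.45 in MPP4. Mpo and Elane were thus highest in MPP3, and the LT-HSC and ST-HSC levels lay within their spread of each other. Mecom averaged 25.3 ± 4.23 in MPP3, 110 ± 23.6 in ST-HSC, 96.7 ± 31 in LT-HSC and 52.2 ± 11.5 in MPP4. Mmrn1 averaged 9.99 ± 0.379 in MPP3, 49.8 ± 18.9 in ST-HSC, 137 ± 20.9 in LT-HSC and 12.8 ± 4.99 in MPP4. The LT-HSC and ST-HSC levels of Mecom differed by less than their spread, while Mmrn1 was highest in LT-HSC, and the MPP3 and MPP4 levels of Mmrn1 lay within their spread. These levels are given as a description without a test.

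Interferon-stimulated genes leaned to ST-HSC. Of 32 tested, 28 had negative differences with a median of -0.71. For 7 the MPP3 libraries lay below without overlap, beside 9.44% of all genes tested. Of the 32, 2 were called lower, which is 6.25% beside 0.770% of all genes tested. The count was 3 without ST-HSC replicate 1, 1 without any other library, and 5 by DESeq2. Iigp1, an interferon-inducible GTPase, stood at 3.21, 1.83 and 5.04 CPM in MPP3 and 19.3, 41.9 and 21.7 CPM in ST-HSC (-3.02 ± 0.48, adjusted p = 0.00789). Oasl2, of the antiviral oligoadenylate synthetase family, stood at 21.5, 37.5 and 24.7 CPM in MPP3 and 62.7, 83.4 and 92.9 CPM in ST-HSC (-1.51 ± 0.34, adjusted p = 0.033). Iigp1 kept its call in every omission, whereas Oasl2 kept it only without ST-HSC replicate 1. Isg15 was at 0.558, 0.281 and 0.215 CPM in MPP3 and 3.48, 9.02 and 1.95 CPM in ST-HSC, near the limit of detection in MPP3 (adjusted p = 0.0533). The Isg15 libraries did not overlap between the populations, while those of Ifit2, Irf7, Mx1 and Rsad2 did.

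Interferon-induced genes outside the list were also called lower. Samd9l, a growth-restraining gene induced by interferon, stood at 22.7, 18.6 and 29.2 CPM in MPP3 and 66.5, 64 and 77.5 CPM in ST-HSC (-1.56 ± 0.24, adjusted p = 0.00629). Uba7, the activating enzyme for ISG15, stood at 66.8, 48.2 and 56.3 CPM in MPP3 and 136, 129 and 233 CPM in ST-HSC (-1.54 ± 0.30, adjusted p = 0.0188). Ddx60, Parp14 and Trim56 differed by -1.45, -1.10 and -0.92. Uba7, Ddx60, Parp14 and Trim56 were picked after their values were seen, and the last 3 lost their calls in every omission. All groups had received pIpC, which induces interferon, 6 weeks before, and the part of this exposure in the difference was not tested.

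Immediate-early genes, which respond within minutes to stimulation or to handling of cells, had 14 of 18 negative differences with a median of -0.43. The share called lower was 5.56%, beside 0.770% of all genes tested. Nr4a1, a nuclear receptor tied to stem cell quiescence, was the 1 called member, at 29.1, 26.6 and 19.7 CPM in MPP3 and 56.2, 69.5 and 95.8 CPM in ST-HSC (-1.55 ± 0.28, adjusted p = 0.0124). It missed the threshold without MPP3 replicate 3 or ST-HSC replicate 3 (adjusted p up to 0.0759). Egr1, a zinc finger factor of the same kind, stood at 237, 143 and 193 CPM in MPP3 and 347, 417 and 392 CPM in ST-HSC (-1.01 ± 0.27, adjusted p = 0.0623). Fos differed by -0.57 without overlap and Jun by -0.10 with overlap.

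Genes of B cells and antibody-secreting cells were present in all 6 libraries, at higher levels in MPP3 and in ST-HSC replicate 1 than in ST-HSC replicates 2 and 3. Immunoglobulin transcripts took 2.478%, 0.578% and 1.901% of reads in MPP3 and 0.598%, 0.00258% and 0.0171% in ST-HSC. Ighm, the heavy chain of IgM, stood at 12700, 2690 and 15100 CPM in MPP3 and 1440, 16.7 and 1.3 CPM in ST-HSC, without overlap and short of the threshold (4.39 ± 1.67, adjusted p = 0.207). Igkc, the kappa light chain, stood at 5490, 771 and 3440 CPM in MPP3 and 1440, 2.31 and 63.9 CPM in ST-HSC. For Igkc, ST-HSC replicate 1 exceeded MPP3 replicate 2.

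The summed level of the antibody-secreting cell list was 21630, 5177 and 20350 CPM in MPP3 and 4914, 163.6 and 290.6 CPM in ST-HSC, and that of the mature B cell list was 317.8, 163.3 and 300.9 CPM in MPP3 and 315.1, 14.81 and 20.69 CPM in ST-HSC. Of 19 antibody-secreting cell genes tested 18 were positive (median 1.82) and 1, Xbp1, was called higher (5.26%, beside 0.984% of all genes tested). Of 13 mature B cell genes 11 were positive (median 1.25), none was called by edgeR or DESeq2, and 0 had an unadjusted p under 0.05. Without ST-HSC replicate 1 the lists had 8 and 3 called higher members, with medians of 6.66 and 3.95. Over the same libraries the summed level of the ER folding genes was 3838, 3595 and 4066 CPM in MPP3 and 2431, 2421 and 1598 CPM in ST-HSC, and the part of antibody-secreting cells in the folding calls was not tested.

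Among single immunoglobulin segments, 4 of 46 tested were called higher, beside 0.984% of all genes tested: Ighv6-3, Ighv9-3, Igkv10-96 and Igkv12-44. Igkv10-96 stood at 11.9, 7.45 and 92.9 CPM in MPP3 and at 0 in all 3 ST-HSC libraries, so that MPP3 replicate 3 held most of its reads. Its call was lost without MPP3 replicate 3 or any ST-HSC library (adjusted p up to 0.132). ENSMUSG00000094062, an identifier that the annotation used here does not name, had 30.8, 17.6 and 11.5 CPM in MPP3 and 0.112, 0 and 0 CPM in ST-HSC (8.45 ± 1.12, adjusted p = 0.00474). Mreg and Sfxn5 were also at 0 in all ST-HSC libraries, at least 12-fold and 2.81-fold higher in MPP3 against a floor of 3 reads per library, and both calls were lost in every omission. Zfp612 was at 0 in all MPP3 libraries and at least 17.8-fold lower there, a call lost in 5 of 6 omissions.

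**Figure D4:**
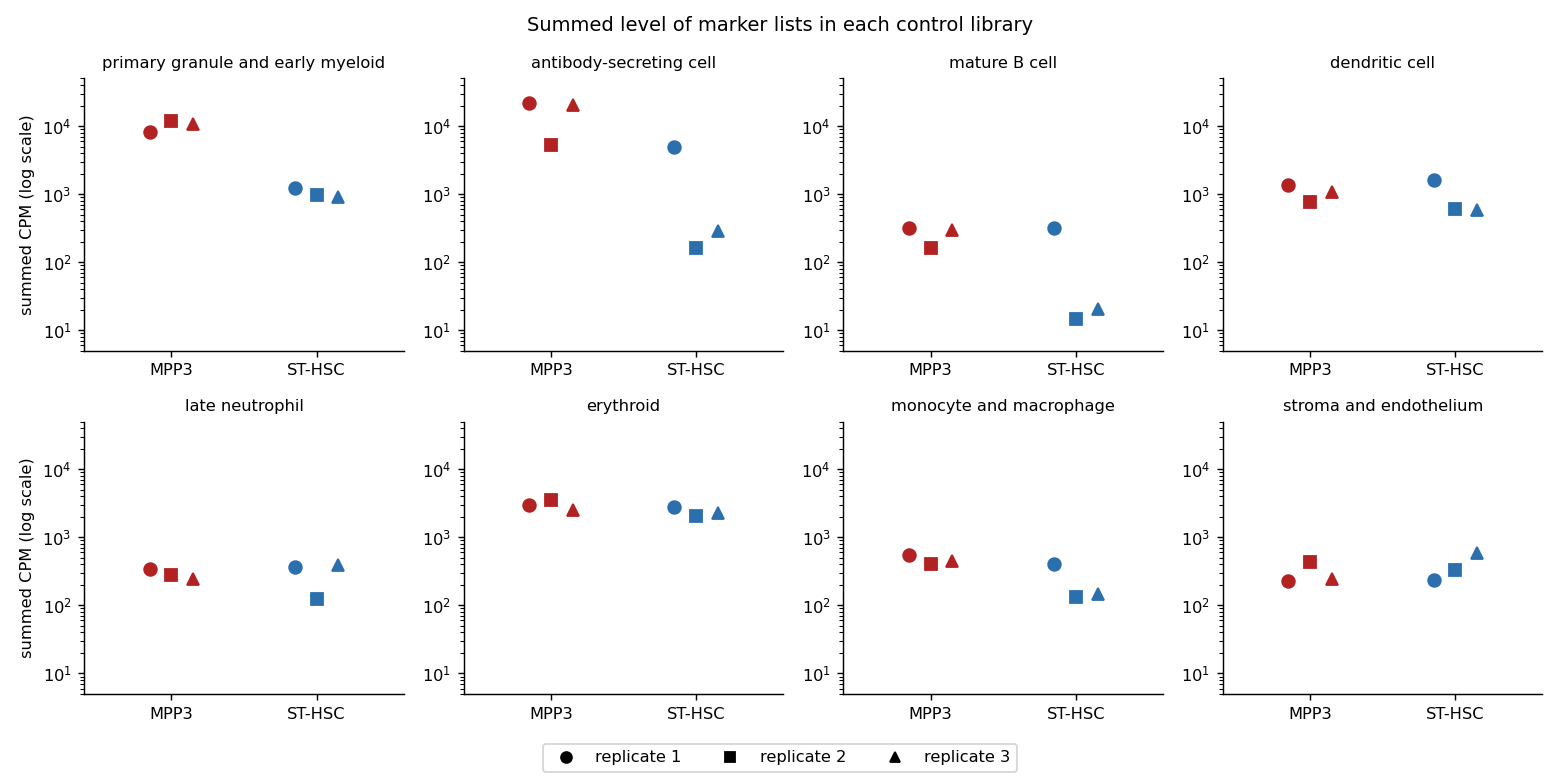
Summed CPM (log scale) of 8 marker lists in each control library, with MPP3 left (red) and ST-HSC right (blue) and a symbol for each replicate. The primary granule and early myeloid sums are apart (8243 to 11680 CPM in MPP3, 911.9 to 1212 CPM in ST-HSC). In the antibody-secreting, mature B and dendritic cell lists ST-HSC replicate 1 lies near or above MPP3 libraries.

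ST-HSC replicate 1 was also the highest ST-HSC library for dendritic cell genes. Siglech, the marker of plasmacytoid dendritic cells, was at 21.3, 12.6 and 21.5 CPM in MPP3 and 140, 1.85 and 3.1 CPM in ST-HSC, and its log2 difference was -1.39 with all libraries but 2.92 without ST-HSC replicate 1. The summed level of the list was 1345, 758.5 and 1084 CPM in MPP3 and 1586, 608 and 580.4 CPM in ST-HSC, and none of 15 members was called by edgeR or DESeq2, with 2 lower at an unadjusted p under 0.05. Without ST-HSC replicate 1 the list's median was 1.39 with 1 called higher, against -0.32 with all libraries. Basophil, mast cell and eosinophil genes had 8 of 10 positive differences with a median of 2.66. None was called by edgeR. At an unadjusted p under 0.05 there were 5 higher, beside 2357 of 14937 genes in either direction. DESeq2 called 2 higher, beside 373 of 14606 genes. Without ST-HSC replicate 1 the median was 6.82 with 1 called higher. The nearest was Hdc, the histamine-forming enzyme, at 36.1, 39.5 and 46 CPM in MPP3 and 6.17, 2.2 and 0 CPM in ST-HSC (3.81 ± 0.96, adjusted p = 0.0533). Lymphoid priming genes had 19 of 26 positive differences (median 0.49) with 1 call each way, beside 0.984% of all genes called higher and 0.770% lower. Without ST-HSC replicate 1 the median was 2.03, with 5 called higher and 0 lower. Tespa1, a T-cell signalling adaptor, was higher by 1.88, and Bcl11a, a factor of lymphoid and dendritic development, was lower by 1.07, at 172, 148 and 160 CPM in MPP3 and 328, 452 and 229 CPM in ST-HSC.

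Megakaryocyte genes had 13 of 17 negative differences (median -0.54), and 1 was called lower (5.88%, beside 0.770% of all genes tested). Of 13 stroma and endothelium genes 10 were negative with a median of -1.75. None was called by edgeR. At an unadjusted p under 0.05 there were 5 lower and 1 higher, beside 2357 of 14937 genes in either direction. DESeq2 called 3 lower, beside 373 of 14606 genes. The MPP3 libraries lay below without overlap for 6 of the 13, beside 9.44% of all genes tested. Sparc, a matrix protein that stem cells and stroma share, stood at 6.14, 12.2 and 9.01 CPM in MPP3 and 24.1, 17.5 and 62.6 CPM in ST-HSC (-1.92, adjusted p = 0.0787). T and NK cell genes were low in both populations, with sums of 50.89, 21.92 and 26.83 CPM in MPP3 and 65.19, 15.85 and 51.48 CPM in ST-HSC. Of 19 adhesion and sphingosine 1-phosphate genes, 1 was called higher (5.26%, beside 0.984% of all genes tested). It was Adgrg3, an adhesion receptor of granulocytes, at 162, 196 and 206 CPM in MPP3 and 77.2, 80.2 and 120 CPM in ST-HSC (1.03 ± 0.22, adjusted p = 0.0275). Cxcr4, which holds progenitors in the marrow, was at 50.5, 85.9 and 90.8 CPM in MPP3 and 28.3, 52.6 and 41.7 CPM in ST-HSC and overlapped.

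The step was measured again between mutant MPP3 and mutant ST-HSC, 4 libraries each. There 417 of 14766 genes tested were higher (2.82%) and 214 lower (1.45%), 4.27% in all. Of the 147 genes called higher in the control step, 144 were tested in the mutant step, 141 had the same sign (97.9%) and 86 were called in the same direction, which is 58.5% of the control list and 20.6% of the mutant list. Of the 115 called lower, all were tested, 113 had the same sign (98.3%) and 53 were called, which is 46.1% of the control list and 24.8% of the mutant list. None was called in the opposite direction. Over all genes tested in both, 65.6% had the same sign.

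In the mutant step Mpo averaged 6207 ± 2580 CPM in mutant MPP3 and 96.1 ± 54.9 CPM in mutant ST-HSC (SD, n = 4 each), a log2 difference of 6.01 (adjusted p = 3.86e-06). Mecom averaged 32.6 ± 3.89 CPM in mutant MPP3 and 101 ± 23.9 CPM in mutant ST-HSC (-1.62, adjusted p = 0.00115). Top2a averaged 587 ± 79.6 CPM in mutant MPP3 and 170 ± 43.1 CPM in mutant ST-HSC (1.78, adjusted p = 4.81e-05). In that step 12 of 16 primary granule and early myeloid genes and 20 of 24 G2 and mitosis genes were called higher. So were 13 of 23 folding genes, while 10 of 24 long-term HSC genes were called lower. In this order the list medians were 3.65, 1.61, 1.00 and -1.38. Over all genes tested in the mutant step, 2.82% were called higher and 1.45% lower. Antibody-secreting and mature B cell genes were called there too, 11 of 18 and 7 of 13 higher, with medians of 5.41 and 4.46. So were 6 of 8 basophil, mast cell and eosinophil genes, whose median of 5.84 was the highest of the lists in the mutant step.

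Cebpa, called in the control step, averaged 18.1 ± 5.77 CPM in mutant MPP3 and 7.99 ± 4.76 CPM in mutant ST-HSC (1.18, adjusted p = 0.283). Samd9l averaged 36.4 ± 14.9 CPM in mutant MPP3 and 42.9 ± 9.55 CPM in mutant ST-HSC (-0.24, adjusted p = 0.786). Phf13, a chromatin reader, averaged 10.4 ± 8.4 CPM in mutant MPP3 and 7.83 ± 2.86 CPM in mutant ST-HSC (0.39, adjusted p = 0.776), against 4.56 ± 1.17 CPM in control MPP3 and 47 ± 43.7 CPM in control ST-HSC (n = 3 each). The other genes with an opposite sign were Fgl2, Ube3b and Sfxn5 among the higher and Rcn2 among the lower.

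Whether the step differed between genotypes was tested directly as the interaction over all 29 libraries. Of 15915 genes tested none passed the threshold, the smallest adjusted p was 0.525, and 901 genes had an unadjusted p under 0.05. DESeq2 called 22 genes with a positive and 7 with a negative difference of mutant minus control log2 step, a sign that does not say which step was larger. The interaction terms were 0.45 for Mpo, -1.17 for Cebpa, 1.32 for Samd9l and 3.74 for Phf13 (adjusted p = 0.981, 0.894, 0.803 and 0.525), so a difference of the step between genotypes was not detectable for these genes with these libraries.

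**Figure D5:**
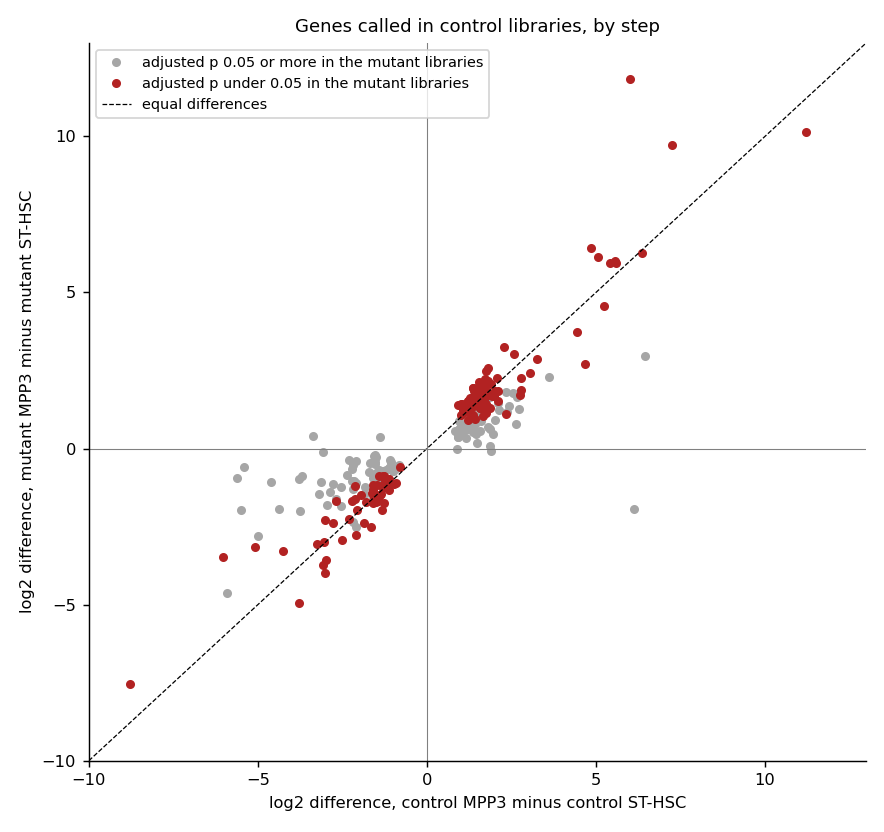
Each point is a gene called in the control comparison and tested in the mutant one. The x axis is the log2 difference of control MPP3 minus control ST-HSC and the y axis that of mutant MPP3 minus mutant ST-HSC; red points were also called in the mutant step and the dashed line marks equal differences. Nearly all points lie at the lower left and upper right, with 141 of 144 higher and 113 of 115 lower genes sharing the sign.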

How the data were processed

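RNA from sorted bone marrow populations was sequenced as polyA libraries. The build GRCm38 and the tools Bowtie2 2.2.0, RSEM 1.2.12, edgeR 3.5.3 and SAMtools 0.1.18 are named per the submitters' processing notes. The values are expected counts per gene as deposited by the authors, all whole numbers and not normalized, in 1 table of 38924 gene identifiers, of which 37607 matched the GENCODE annotation and 1317 did not. The 6 libraries compared held 6133994 to 10368920 counts, and the floors of 3 reads cover counting error only.

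The members and the gene lists were chosen with earlier results of these data known. The 14 control libraries were fitted together as 4 group means with edgeR 4.0.16 in R 4.3.3 (TMM scaling, filterByExpr with a minimum of 10 counts and 15 in total, quasi-likelihood F test, 10 residual degrees of freedom), and p-values were adjusted by Benjamini-Hochberg over all genes tested, called under 0.05. All adjusted p-values come from this test, and each ± after a log2 difference is a standard error. CPM values are TMM-scaled, and levels of different genes were not compared because CPM is not per length. The mutant step was fitted on 15 mutant libraries and the difference of the steps on all 29, where the design text counts 3 mutant MPP3 samples and the sample list 4. Genes were named by rule: the 12 smallest p-values in each direction without overlap between groups, and for each list its first 3 tested members and up to 4 called members. All other genes, such as those at 0 in a population, those with an opposite sign in the mutant step and members of gene families, were named after their values were seen. Promoter windows came from RefSeq (GRCm38.p6; 32851 windows of 27025 genes). The scripts were tested on simulated data. Alternatives were RLE scaling, DESeq2 1.42.0, no filter, only the compared libraries, replicate blocks, removal of ribosomal RNA or immunoglobulin rows, a term for the number that starts the column names, and each library left out. Some genes of the lists are counted but not reported here by name.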

Additional observations from a re-analysis of the deposited data

Results flagged for a closer look

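In 50 groups of 4 mutant libraries examined gene by gene, 4 held a library far from the others, and chance alone flags about 1 in 20 groups. Gabbr1, a subunit of the GABA-B receptor, was at 38.6 CPM in mutant MPP3 replicate 2, while the other mutant MPP3 libraries lay between 16.8 and 20.2 CPM. The same gene was at 175 CPM in mutant ST-HSC replicate 2, with 60.6 to 70.5 CPM in the other mutant ST-HSC libraries. Both libraries lay above their groups. Espl1, which encodes separase, was at 44.9 CPM in mutant ST-HSC replicate 2, with 19.4 to 23.4 CPM in the others. Mecom, the stem-cell factor gene, was at 64.7 CPM in mutant ST-HSC replicate 3, below the 110 to 114 CPM of the others. The control groups of 3 libraries are too small for this check.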

How the results depend on the processing

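With RLE scaling the control comparison gave 147 higher and 114 lower genes, of which 146 and 113 were shared with the 147 and 115 reported. DESeq2 gave 373 higher and 373 lower genes, the table without a filter on low counts 247 higher, and the fit on the compared libraries alone 95 higher and 45 lower. With 1 library left out there were 26 to 171 higher and 17 to 90 lower genes, the fewest of both without MPP3 replicate 3. The cause was not tested.

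A replicate block on the number in the sample descriptions gave 91 higher and 55 lower genes, and a block on the title number 126 and 79. Only 2 description numbers are shared by the compared populations. As Pearson correlations across genes, libraries sharing a description number deviated together by 0.18 (replicate 1 of both populations) and 0.148 (MPP3 replicate 2 and ST-HSC replicate 3). These were the highest values of any MPP3 and ST-HSC pair, and the other pairs ran from -0.164 to 0.016. Libraries sharing a title number gave 0.18, 0.007 and -0.012. The labels do not say what the numbers mean, so the main fit did not pair the libraries. Whether same-numbered libraries share a source was not tested. A term for the number that starts the column names gave 184 and 141.

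In the mutant step, DESeq2 gave 702 higher and 481 lower genes and the compared libraries alone 230 and 50, against 417 and 214. With 1 library left out the counts were 296 to 380 and 89 to 203, with 89, 136 and 130 lower genes without mutant MPP3 replicate 3, mutant MPP3 replicate 2 and mutant ST-HSC replicate 2. The difference of the steps, with 0 calls by edgeR, had 22 and 7 by DESeq2 and 2 with the description block.

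Of the single-gene values under settings that keep all libraries, 1414 stayed on their side of the threshold, 89 lost a call, 71 gained one and 21 turned sign. The values that turned were all of uncalled genes. They were 0.015 for Pecam1 without the filter. With the description block they were Siglech 0.059, Ccr9 0.541, Itgax 0.674, Epor 0.213, Hk1 0.018, Jun 0.017 and Lyz2 0.164. With the title block they were S100a9 -0.069, Siglech 0.035, Ccr9 0.046, Itgax 0.329, Pecam1 0.043 and Lyz2 0.037. With the column-name term they were Cd34 -0.025, Ngp 0.007, Ccr9 0.215, Itgax 0.326, Epor 0.307, Cd3d 0.17 and Lyz2 0.268.

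With 1 library left out, 734 single-gene values kept their side, 297 lost a call, 11 gained one and 32 turned sign. The genes that turned ranged from -0.133 to 4.872 (C1qa), -1.405 to 2.124 (Ccr9), -0.187 to 0.38 (Cd34), -0.272 to 0.339 (Cd3d), -0.217 to 0.135 (Epor), -0.265 to 0.0 (Hk1), -0.262 to 0.691 (Hk2), -0.359 to 7.519 (Il7r), -1.093 to 3.821 (Itgax), -0.767 to 0.239 (Ngp), -0.391 to 0.654 (Pecam1), -0.103 to 1.18 (S100a8), -0.418 to 0.45 (S100a9), -1.943 to 2.921 (Siglech), -0.002 to 0.323 (Spi1), -5.996 to 5.167 (Trbc2), -0.333 to 0.009 (Vwf), -0.411 to 0.207 (mt-Rnr1), -0.522 to 0.053 (mt-Rnr2) and -0.543 to 0.819 (Lyz2). With 3 libraries a group, differences of low genes are limited by depth, since 3 reads stand for 0.289 to 0.489 CPM.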

Other observations

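Genes outside every list filled part of the calls and were picked after their values were seen. Arsb, a lysosomal sulfatase, stood at 110, 131 and 124 CPM in control MPP3 and 37.3, 27.9 and 40.7 CPM in control ST-HSC (1.78 ± 0.31, adjusted p = 0.0104). Pdzk1ip1, a small membrane protein known from stem cell signatures, stood at 0.976, 3.79 and 1.93 CPM in control MPP3 and 16.8, 19.7 and 28 CPM in control ST-HSC (-3.26 ± 0.56, adjusted p = 0.0104). Slc18a2, the vesicular monoamine transporter, stood at 81.3, 81.1 and 83.9 CPM in control MPP3 and 146, 245 and 209 CPM in control ST-HSC. No library of 1 population reached the other in these 3 genes.

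In the mutant step several genes that missed the threshold in controls were called. Clec12a, Ly6c2, Cd48 and Hdc had log2 differences of 3.49, 5.21, 3.29 and 6.02 between mutant MPP3 and mutant ST-HSC (adjusted p = 0.000145, 0.00115, 0.00809 and 0.00255). In controls the values were 2.99, 4.04, 2.27 and 3.81. The mutant step has 4 libraries a group and the control step 3, and none of these genes passed the test of the difference between the steps.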
